A study of Rattus norvegicus with 6 samples.

Results

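Integrins and cadherins are the receptors by which a Schwann cell, the glial cell of peripheral nerves, holds on to the matrix around it and to its neighbours. The genes described here are every gene of the count tables with a symbol of the integrin alpha series (Itga), the integrin beta series (Itgb) or the numbered cadherin series (Cdh). The symbols matched 39 of the 17327 genes, 20 of them integrin subunits and 19 cadherins, and the rule itself uses symbols only. Of the 39 genes, 19 had enough reads to be tested, namely 12 integrin subunits and 7 cadherins. The other 20 were below the filter on low counts and are accounted for with their counts.

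An integrin is a pair of 1 alpha and 1 beta chain. The alpha chain largely sets the ligand, and the beta chain links the receptor to the cytoskeleton. Schwann cells use laminin-binding integrins to attach to their basal lamina, and the pairing changes as they mature, with the Itgb4 chain typical of the myelinating cell. Classical cadherins bind the same or a related cadherin on the next cell and hold catenins at the inner face of the membrane.

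Both groups were primary Schwann cells from the sciatic nerves of adult Wistar rats, expanded in serum with forskolin, which raises cAMP, and a growth factor, and then starved for 18 h in 2% serum. The labels name this factor as glial growth factor, and the methods of the study name it as recombinant soluble NRG1β1. By those methods both groups had met soluble NRG1 before starvation, and the starving medium is listed without it. The NRG1 group (n = 3) received 10 nM recombinant soluble NRG1β1 for 6 h and the mock group (n = 3) only the carrier with BSA, and both groups had 10 µM forskolin during starvation and stimulation. The 3 experiments used independent cell preparations, called cultures 1, 2 and 3 here, and each gave 1 mock and 1 NRG1 sample. As a model the cells were grown without axons, and forskolin was present in the controls as well. The question was which genes change early after soluble NRG1, a ligand of the ErbB receptors. Counts on genes summed to between 6821590 and 15475018 per sample, and 3 counts correspond to between 0.194 and 0.444 CPM, which are counts scaled to a common library size after TMM normalization.

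The label Schwann cells was checked against fixed markers, and culture 1 stood apart from the other cultures. All 10 Schwann markers were detected in every sample, and their summed level was 6458 and 5317 CPM in the mock and NRG1 samples of culture 1, against 13300 to 17040 CPM in the other 4 samples. Fibroblast markers summed to 72500 and 73600 CPM in culture 1 against 15620 to 24500 CPM elsewhere. Of these sums, Col1a1 alone had 28249.7 and 32087.1 CPM in culture 1 and 13413.2 to 21494.4 CPM elsewhere, where it made up most of the sum. In culture 1, 9 of 10 fibroblast markers were above the other 4 samples. Dcn, Lum and Thy1 of that list were at 0 in cultures 2 and 3, whereas Thy1 had 1268 and 1143 CPM in culture 1. Markers of muscle and contractile cells summed to 3785 and 3765 CPM in culture 1 and to 89.1 to 222.7 CPM elsewhere. Of 8 endothelial markers 4 (Pecam1, Cldn5, Emcn and Esam) were at 0 in all 6 samples, and so were 7 of 12 macrophage markers, Ptprc, Adgre1 and Tyrobp among them. The endothelial list summed to 6.53 to 15.4 CPM, of which Tek had 5.87 to 14.8 CPM, and the macrophage list to 3.55 to 10.6 CPM. Perineurial markers summed to 403.7 to 553.7 CPM, of which Tjp1 had 346.8 to 506.1 CPM. Cldn1 of that list was at 0 in the mock samples and had at most 9 counts in NRG1 samples. Between mock and NRG1, the perineurial markers Slc2a1 and Lgr5 (higher and lower) and the Schwann marker S100b (lower) were among those called. No fibroblast, muscle, endothelial or macrophage marker was called, but only 7, 3, 1 and 1 of these lists were tested. Such numbers are too small to set against the 11.8% of all genes called. In such bulk samples fewer cells of a type and less RNA per cell cannot be told apart.

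NRG1 changed 5 of the 19 genes tested, or 26.3% against 11.8% of all genes, and 4 of the 5 fell. At an adjusted p of at most 0.01 in the edgeR fit paired by culture, 1 was higher and 4 were lower. Itga7, the alpha chain of a laminin receptor, rose. Itgb4, the beta chain that pairs with Itga6, and Itgb5, a beta chain of vitronectin receptors, fell together with the cadherins Cdh19 and Cdh11. Over all 9740 genes tested, 6.31% were called higher and 5.51% lower, against 5.26% and 21.1% of the 19 genes. Past an absolute log2 change of 1 as well were 3 of the 19 genes (15.8%), all lower, against 3.47% of all genes in either direction. Of the 9740 genes, 186 were lower and 152 higher past that change. The median log2 change, the log2 of NRG1 over mock, was -0.11 over the 19 genes and -0.03 over all genes. The same direction in the 3 cultures was seen for 4 genes that were higher, for 8 that were lower, and not for the other 7. The share of all genes with the same direction in the 3 cultures was not computed, so these counts have no background to stand against.

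**Figure D1:**
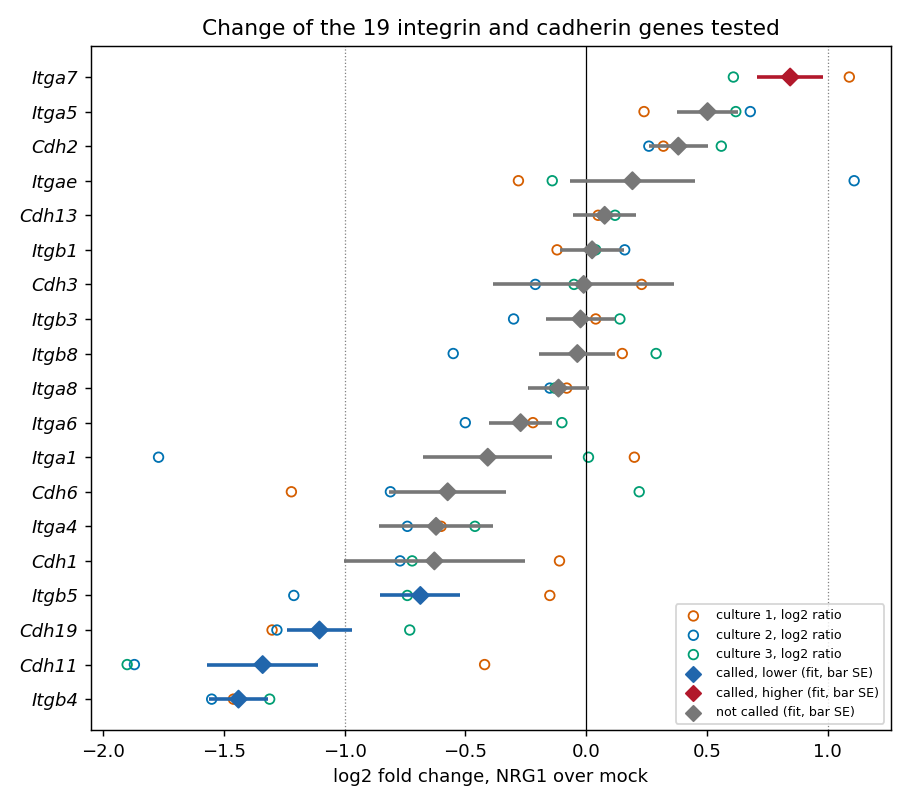
Log2 fold change of NRG1 over mock (horizontal axis) for the 19 genes tested, with filled diamonds for the edgeR estimate, bars for its standard error and open circles for the log2 ratio in each culture; dotted lines mark a log2 change of -1 and 1. Itgb4, Cdh11 and Cdh19 lie to the left of -1, Itga7 is the gene farthest to the right, and for Cdh11 and Itgb5 the circle of culture 1 lies closer to 0 than the others.

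Among the alpha chains that bind laminin, Itga7 rose in each culture. Its level was 534.7, 627.3 and 1139.7 CPM in mock samples 1, 2 and 3 and 1134.6, 1120.4 and 1744.1 CPM in NRG1 samples 1, 2 and 3. Mock sample 3 was thus level with NRG1 samples 1 and 2, so that the groups overlapped although every NRG1 sample was above its own mock sample. The NRG1 effect was a log2 change of 0.85 (standard error, SE, 0.14, adjusted p = 0.000597 by edgeR), a 1.80-fold rise, and the folds within cultures 1, 2 and 3 were 2.12, 1.79 and 1.53. Itga6, the alpha chain that can pair with Itgb1 or Itgb4, had 343.9, 751.4 and 751.6 CPM in mock and 296.2, 531.5 and 702.4 CPM in NRG1 samples. It was a little lower in each NRG1 sample, and the log2 change of -0.27 (SE 0.13, adjusted p = 0.145 by edgeR) did not pass the test.

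Itgb4 was the gene of the 19 with the smallest adjusted p. The Itgb4 chain has a long cytoplasmic part that binds intermediate filament linkers, and with Itga6 it forms the laminin receptor of hemidesmosomes and of the outer surface of myelinating Schwann cells. It was counted at 61.9, 153.3 and 149.5 CPM in mock samples 1, 2 and 3 and at 22.4, 52.4 and 60.2 CPM in NRG1 samples 1, 2 and 3. All NRG1 samples were below all mock samples, by a narrow margin between NRG1 sample 3 and mock sample 1. The NRG1 effect was a log2 change of -1.44 (SE 0.12, adjusted p = 4.59e-06 by edgeR), which leaves 0.369 of the mock level, and the shares left in cultures 1, 2 and 3 were 0.362, 0.342 and 0.403.

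Itgb1, the beta chain shared by Itga1, Itga4 to Itga8 and several others, was not called. It had 2348.4, 1642.5 and 1669.4 CPM in mock samples and 2165.0, 1831.8 and 1710.6 CPM in NRG1 samples. The NRG1 sample was lower in culture 1 and higher in cultures 2 and 3, and the log2 change was 0.03 (SE 0.13, adjusted p = 0.912 by edgeR). Itgb8, whose receptor binds latent TGF-beta, had 548.8, 1045.9 and 701.4 CPM in mock and 609.8, 712.0 and 857.4 CPM in NRG1 samples. Its cultures disagreed, with NRG1 lower in culture 2 only, and the log2 change was -0.04 (SE 0.16, adjusted p = 0.893 by edgeR). Itgb3, a beta chain of vitronectin and fibrinogen receptors, had a log2 change of -0.02 (SE 0.14).

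Itgb5 fell, but by an amount that differed between cultures. Its level was 658.7, 145.9 and 119.0 CPM in mock samples and 593.8, 63.2 and 71.1 CPM in NRG1 samples. Both samples of culture 1 were far above the other 4, so that the groups overlapped, and the share left after NRG1 was 0.901 in culture 1, 0.433 in culture 2 and 0.597 in culture 3. The log2 change was -0.69 (SE 0.17, adjusted p = 0.00862 by edgeR). The call was lost with robust empirical Bayes (adjusted p = 0.0122), without culture 2, where the log2 change was -0.43 (adjusted p = 0.0521), and without culture 3 (adjusted p = 0.0436). Without culture 1 it was -0.97 (adjusted p = 2.63e-06).

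**Figure D2:**
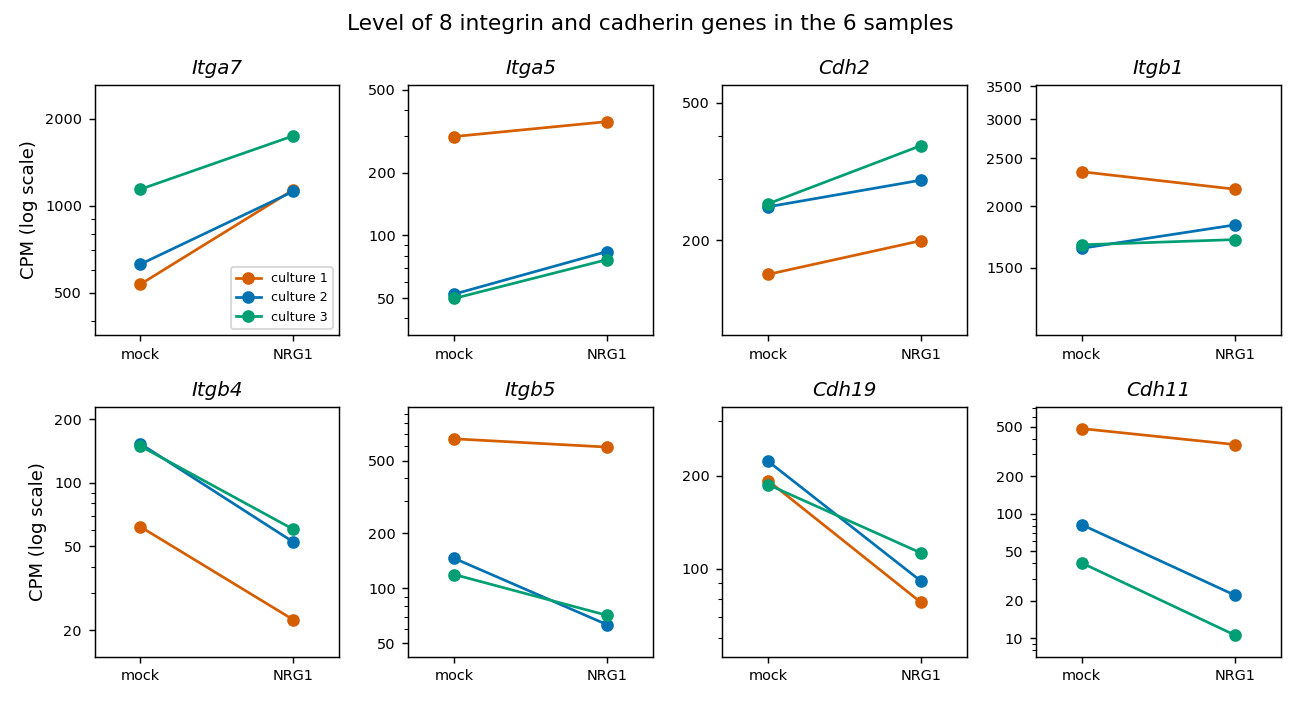
Level of 8 genes in CPM (vertical log axis, a separate scale in each panel) in the mock and NRG1 sample of each culture, joined by a line. Itga7 rises and Itgb4 and Cdh19 fall along all 3 lines, Itgb1 is almost level, and culture 1 lies far above the others for Itga5, Itgb5 and Cdh11.

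The tested alpha chains of fibronectin and collagen receptors gave no call, and only 1 of 3 matched collagen-binding chains, Itga1, was tested. Itga5, the alpha chain of the main fibronectin receptor, had 298.1, 52.2 and 49.8 CPM in mock and 351.6, 83.6 and 76.5 CPM in NRG1 samples. Each NRG1 sample was above its own mock sample, by 1.18-fold, 1.60-fold and 1.54-fold in cultures 1, 2 and 3. The log2 change of 0.50 (SE 0.13, adjusted p = 0.0112 by edgeR) was just outside the threshold, and it passed with DESeq2 (adjusted p = 0.00622), RLE normalization, no filter on low counts, robust empirical Bayes and without culture 1. Itga1, a collagen-binding chain, had 125.6, 24.6 and 5.91 CPM in mock and 143.8, 7.08 and 5.94 CPM in NRG1 samples. It was lower with NRG1 in culture 2 only, and its log2 change of -0.41 (SE 0.27, adjusted p = 0.296 by edgeR) became -0.91 (adjusted p = 0.00535) without culture 1 and 0.14 without culture 2. Itga8, which binds nephronectin, and Itga4, which binds fibronectin and Vcam1, had log2 changes of -0.11 (SE 0.13) and -0.62 (SE 0.24). Itgae, known as the partner of Itgb7, had between 4.74 and 10.5 CPM and was above its mock sample in culture 2 only (log2 change 0.19, SE 0.26).

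Among the cadherins, Cdh19 fell in each culture. This type II cadherin marks the Schwann cell lineage from its precursors on. It was counted at 192.9, 222.8 and 187.3 CPM in mock samples and at 78.0, 91.4 and 112.6 CPM in NRG1 samples, and the groups did not overlap. The level in mock samples varied little, with 201.0 ± 19.1 CPM (SD, n = 3), and culture 1 was not set apart. The log2 change was -1.10 (SE 0.14, adjusted p = 7.93e-05 by edgeR), and the shares left in cultures 1, 2 and 3 were 0.404, 0.410 and 0.601. Among the Schwann markers, S100b also fell, with a log2 change of -0.58, while Sox10 and Ngfr had 0.11 and 0.07 and were not called. The part of Schwann cell share or state in the value of Cdh19 was not tested.

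Cdh11, a type II cadherin known from mesenchymal cells, also fell, with a wide spread between cultures. It had 482.0, 81.4 and 40.1 CPM in mock samples and 359.0, 22.1 and 10.6 CPM in NRG1 samples. Each NRG1 sample was below its own mock sample, while both samples of culture 1 lay above all others. The share left was 0.745 in culture 1, 0.272 in culture 2 and 0.264 in culture 3, and the drop was 123, 59.2 and 29.5 CPM. The log2 change was -1.34 (SE 0.23, adjusted p = 0.000921 by edgeR) and -1.90 (SE 0.20) without culture 1. The call was lost with DESeq2 (log2 change -1.40, adjusted p = 0.0244) and with robust empirical Bayes (adjusted p = 0.0638). Of the fibroblast markers none of 7 tested was called, and their ratios of NRG1 to mock went in both directions. In cultures 1, 2 and 3 the ratio was 1.04, 0.333 and 0.384 for Col3a1, 1.02, 0.566 and 0.713 for Pdgfrb and 1.14, 0.624 and 1.01 for Col1a1. It was 0.82, 1.22 and 1.3 for Postn and 0.951, 6.08 and 2.28 for Pdgfra, the latter from at most 25 counts in cultures 2 and 3. Fbln1 had 0.981, 0.57 and 0.687 and Mfap5 0.96, 0.608 and 0.351, and the part of such cells in the values of Cdh11 and Itgb5 was not tested.

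Promoters are shown for Cdh19 and Itgb5, the 2 called genes for which a promoter sequence was available. RefSeq's table for the GRCr8 build held 23 of the 39 genes and 2 of the 5 called ones. Each sequence runs from 250 bases before to 50 bases after the annotated start, 5′ to 3′ on the strand of the gene, and capitals mark a match to a searched motif. The first lies at chr13:28533704-28534003 and the second at chr11:80449324-80449623, both on the minus strand.
Cdh19: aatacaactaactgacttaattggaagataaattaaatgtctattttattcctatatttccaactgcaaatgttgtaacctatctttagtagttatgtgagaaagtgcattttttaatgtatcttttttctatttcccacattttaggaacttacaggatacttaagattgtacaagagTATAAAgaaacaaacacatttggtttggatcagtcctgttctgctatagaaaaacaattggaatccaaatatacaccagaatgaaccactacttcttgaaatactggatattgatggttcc
Itgb5: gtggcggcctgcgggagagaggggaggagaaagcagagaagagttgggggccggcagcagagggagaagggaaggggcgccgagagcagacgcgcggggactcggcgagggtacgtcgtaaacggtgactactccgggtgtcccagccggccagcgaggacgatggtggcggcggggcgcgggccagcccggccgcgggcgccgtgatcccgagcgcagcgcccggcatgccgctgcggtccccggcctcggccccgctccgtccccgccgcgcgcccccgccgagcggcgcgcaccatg
The Cdh19 sequence has 30.0% G and C and the Itgb5 sequence 76.7%, against a median of 51.7% over 33469 promoters. Both strands were searched for TGACGTCA (cAMP response element), TGANTCA (AP-1), CCGGAAG (ETS), CACGTG (E-box), ACAAAG (SOX), GGAATG (TEAD), GGGCGG (binding box of Sp1), and for the box of core promoters spelled TATAAA. None of these motifs contains another on either strand. The 1 match in Cdh19 is TATAAA, which begins 71 bases before the start and which 14.2% of all promoters hold, and Itgb5 holds no match. TGACGTCA was in none of the 23 promoters and in 1.8% of all, and CCGGAAG in none of the 23 and in 8.7% of all. GGGCGG was in 10 of the 23, Itga5 and Itgb1 among them, and in 33.1% of all, TGANTCA in 1 and 7.3%, CACGTG in 1 and 6.4%, ACAAAG in 4 and 18.8%, and GGAATG in 5 and 14.2%.

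Cdh2, the neural cadherin of Schwann cell precursors and of contacts between Schwann cells, was somewhat higher with NRG1. It had 159.1, 249.9 and 255.0 CPM in mock and 199.3, 298.6 and 376.0 CPM in NRG1 samples. Both samples of culture 1 were below the other 4, and each NRG1 sample was above its own mock sample. The log2 change of 0.38 (SE 0.12, adjusted p = 0.035 by edgeR) did not pass at 0.01. Cdh6, another type II cadherin, had 17.6, 16.1 and 8.75 CPM in mock and 7.47, 9.10 and 10.2 CPM in NRG1 samples. It was lower with NRG1 in cultures 1 and 2 and not in culture 3, with a log2 change of -0.57 (SE 0.24, adjusted p = 0.1 by edgeR) that passed the test without culture 3 (adjusted p = 0.00988). Cdh13, which is held by a lipid anchor and has no catenin-binding tail, gave a log2 change of 0.08 (SE 0.13). Cdh1 and Cdh3, the epithelial and placental cadherins, had at most 26 and 20 counts in any sample, and their log2 changes were -0.63 (SE 0.38) and -0.01 (SE 0.38).

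**Figure D3:**
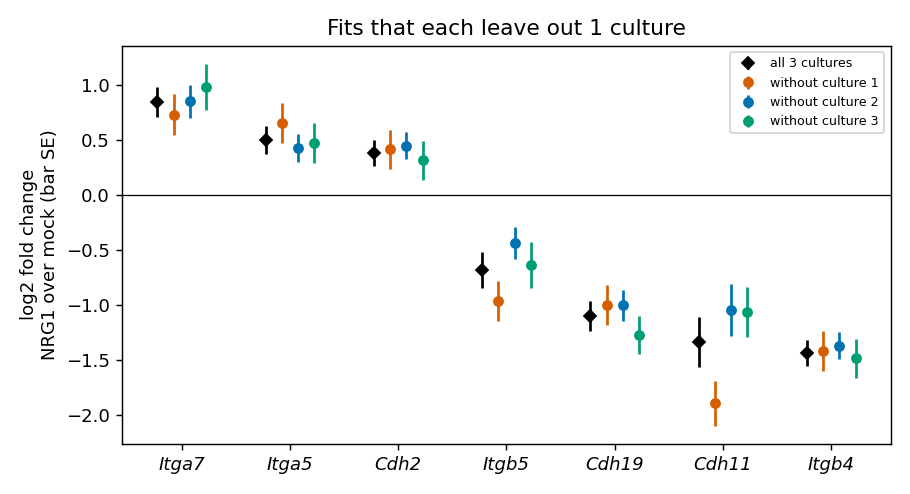
Log2 fold change of NRG1 over mock (vertical axis) for 7 genes in the fit of all cultures (diamonds) and in fits that each leave out 1 culture (circles), with bars for the standard error. Itgb4 stays between -1.49 and -1.37, Cdh11 ranges from -1.90 to -1.05 and Itgb5 from -0.97 to -0.43.

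All 5 calls rest on the comparison within cultures. When the 6 samples were treated as unpaired, with no replicate block, none of the 5 passed, with adjusted p-values of 0.163 for Cdh19, 0.284 for Itgb4, 0.406 for Itga7, 0.909 for Cdh11 and 0.937 for Itgb5, and the smallest adjusted p of any gene was 0.139. In that fit 2 of the 19 genes had an unadjusted p under 0.05. With the block but DESeq2 in place of edgeR, Itga7 and Itga5 were called higher and Itgb4, Itgb5 and Cdh19 lower.

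The level of many of these genes in culture 1 lay apart from the other cultures. Both samples of culture 1 were above the other 4 for 9 of the 19 genes and below them for 3, against 21% and 20.3% of all genes tested. Higher in culture 1 were Cdh13, with 290 CPM on average against 11 CPM in cultures 2 and 3, Itga1 with 135 against 10.9 CPM, Cdh11 with 420 against 38.6 CPM and Itga8 with 134 against 16 CPM. The other 5 were Itgb5, Itga5, Itgb3, Itga4 and Itgb1, for which the ratio ran from 6.28 down to 1.32. Lower in culture 1 were Itga6 with 320 against 684 CPM, Cdh2 with 179 against 295 CPM and Itgb8 with 579 against 829 CPM. The fibroblast, contractile and Schwann markers differed in the same 2 samples by the values given above, and their part in these levels was not tested.

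**Figure D4:**
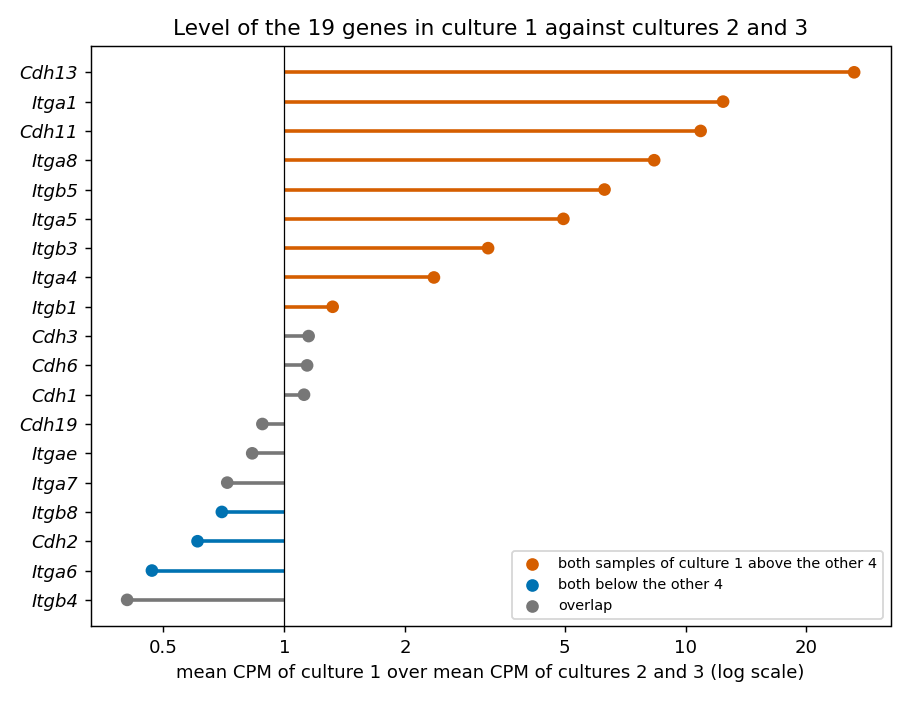
Mean CPM of the mock and NRG1 sample of culture 1 divided by the mean CPM of the 4 samples of cultures 2 and 3 (horizontal log axis) for the 19 genes, with colours for genes whose culture 1 samples lay both above, both below or among the other 4. Cdh13 is at 26.3, Itga1 at 12.4 and Itgb4 at 0.406.

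Itga11, a collagen-binding chain known from fibroblasts, showed this difference in full. It had 5073 counts in mock sample 1 and 5106 counts in NRG1 sample 1, which is 677.8 and 680.7 CPM, and 0 counts in the 4 samples of cultures 2 and 3. Reads in only 2 samples kept it below the filter. The other 19 untested genes had few reads. Cdh15, the muscle cadherin, reached 27 counts in NRG1 sample 3 and had at most 7 in the other samples. Cdh23, a cadherin of the inner ear, and Itga10 reached 4 counts. Cdh17, Cdh20, Cdh22, Cdh26, Cdh7, Itgad, Itgal, Itgam, Itgb2, Itgb6 and Itgb7 had at most 2 counts in any sample, and Cdh10, Cdh16, Cdh5, Cdh8 and Cdh9 had 0. Of the chains of leukocyte integrins, Itgal, Itgam, Itgad and Itgb2 were thus at or near 0 in these cultures, and so was the endothelial cadherin Cdh5. Itgae, which also belongs to the leukocyte alpha chains, was not, with 4.74 to 10.5 CPM.

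The genes that act with integrins and cadherins were read from the same fit, on 4 lists, whose counts stand against 6.31% of all genes called higher and 5.51% called lower. Of the integrin adaptors and kinases, 3 of 31 tested rose and 1 fell, with a median log2 change of 0.15, and these shares are near those of all genes. Parvb, a parvin that binds integrin-linked kinase, rose from 27.1 ± 7.8 to 69.1 ± 19.8 CPM (SD, n = 3), a log2 change of 1.34 (SE 0.14, adjusted p = 2.64e-05 by edgeR). Actn4, an actin-bundling alpha-actinin, and Bcar1, a docking protein of focal adhesions, rose with log2 changes of 0.86 (SE 0.13) and 0.49 (SE 0.12). Dab2, an endocytic adaptor of integrin beta chains, fell with a log2 change of -1.93 (SE 0.40), which was lost with DESeq2, with robust empirical Bayes (adjusted p = 0.306) and without culture 2, where it was -1.20. Dab2 had 158.7, 35.8 and 15.4 CPM in mock samples, the shares left in cultures 1, 2 and 3 were 0.694, 0.0659 and 0.139, and the log2 change without culture 1 was -3.35.

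Of the integrin ligands, 2 of 23 tested rose and 2 fell, also near the 6.31% and 5.51% of all genes, with a median log2 change of -0.15. Tgfb1, whose latent form binds integrins, rose from 109.8 ± 14.7 to 173.0 ± 30.4 CPM (SD, n = 3) and Ltbp1, which holds latent TGF-beta in the matrix, from 293.1 ± 47.5 to 463.3 ± 64.2 CPM (SD, n = 3). Their log2 changes were 0.65 (SE 0.12, adjusted p = 0.00191 by edgeR) and 0.66 (SE 0.12, adjusted p = 0.00173 by edgeR). Nid2, a basal lamina protein, and Fbln5, an elastic fibre protein with an integrin-binding site, fell with log2 changes of -0.67 (SE 0.15) and -0.66 (SE 0.14). Col1a1 and Col3a1 stand on this list and among the fibroblast markers, and neither was called, Col3a1 with a log2 change of -0.98 (adjusted p = 0.0118).

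Of the catenins and other partners of cadherins, 2 of 20 tested rose and 2 fell, against 6.31% and 5.51% of all genes, with a median log2 change of 0.07. Ctnnb1, the beta-catenin that binds cadherin tails, rose from 716.7 ± 181.7 to 1055 ± 238 CPM (SD, n = 3), a log2 change of 0.56 (SE 0.12, adjusted p = 0.00523 by edgeR). Pkp1, a plakophilin of desmosomes, rose with 1.28 (SE 0.14). Ctnnal1, a relative of alpha-catenin, fell with -1.33 (SE 0.14), and Arvcf, a relative of p120-catenin, with -0.70 (SE 0.15). Of the transcription factors known to act on cadherin genes, 1 of 7 tested was called higher, namely Snai1 with a log2 change of 0.75 (SE 0.17). None was called lower, and these counts are too small to set against the 6.31% and 5.51% of all genes. The median log2 change of the list was -0.387, opposite in sign to Snai1. The uncalled Snai2, Tcf4, Twist2, Zeb2, Zeb1 and Foxc2 had log2 changes of -0.565, -0.495, -0.476, -0.387, -0.221 and -0.048. Among the 13 partner genes called, Parvb, Pkp1, Ctnnal1 and Tgfb1 passed in each fit that left out 1 culture, and Arvcf and Ctnnb1 in none. Bcar1 lost the call without culture 1 or 3, Nid2, Fbln5 and Snai1 without culture 2 or 3, and Actn4 and Ltbp1 without culture 3.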

How the data were processed

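Poly(A) RNA of the 6 samples was sequenced on an Illumina instrument. Per the labels and the methods of the study, the authors aligned reads to rn5 with TopHat2 2.0.10, obtained raw counts for RefSeq genes from HTSeq and deposited these counts. The kit does not mark strand, so overlapping genes cannot be told apart. Summary lines for unassigned alignments were left out, and 47.0% to 49.9% of alignments were on genes. Counting noise limits genes near 3 counts.

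From the deposited counts, edgeR 4.0.16 (R 4.3.3) compared NRG1 with mock over 9740 genes (filterByExpr, minimum count of 10, TMM, quasi-likelihood test, Benjamini-Hochberg adjustment over all genes tested). The fit was paired by replicate number, following the design of the study, and genes were called at an adjusted p of at most 0.01. The SE is |log2 change| / sqrt(F). Levels are not compared between genes, since transcript lengths were not used. The pairing comes from the numbers in the labels, and samples of 1 number deviated together from their group means (r across genes 0.91, 0.67 and 0.81). Samples of cultures 2 and 3 also did so across numbers, with r of 0.51 for mock 2 with NRG1 3 and for mock 3 with NRG1 2. These values therefore set culture 1 apart more clearly than they separate cultures 2 and 3. No 2 samples agreed within sampling noise. The script was tested on simulated data. Alternatives were no replicate block, DESeq2 1.42.0, RLE normalization, other filters, robust empirical Bayes, an adjusted p of 0.05 and each replicate left out. The members and lists were chosen with earlier results of these data known. The text gives full values for called members and for 7 adhesion genes known in Schwann cells (Itga6, Itga7, Itgb1, Itgb4, Itgb8, Cdh2 and Cdh19), values for uncalled members whose cultures disagree, and up to 6 called genes per partner list. Full values of Itga5 and Itga11 were added after they were seen. Itgav was also planned for full values, but no gene of the deposited counts bears that symbol, so it could not be analysed here. The single value of 1 Schwann marker is not reported here.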

Additional observations from a re-analysis of the deposited data

How the results depend on the processing

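With no replicate block, 0 genes were called, higher or lower, among integrins and cadherins and among the partner genes, and 0 were past the fold threshold. Against 1 integrin or cadherin gene called higher, 2 were called with DESeq2 (with replicate block), RLE normalization, no filter on low counts or robust empirical Bayes, and 3 at an adjusted p of at most 0.05. Against 4 called lower, robust empirical Bayes called 2. Leaving out 1 culture gave 1 to 2 genes higher and 3 to 5 lower. For the partner genes, against 8 higher and 5 lower, leaving out 1 culture gave 3 to 8 higher and 1 to 9 lower, and 10 were lower with no filter and 13 at an adjusted p of at most 0.05. Among these fits that leave out 1 culture, the 9 lower partner genes came without culture 1, the 1 lower without culture 2 and the 3 higher without culture 3. No call changed sign under these alternatives. The causes were not tested. Pairs left after omitting a culture number 2, and genes near 3 counts cannot show a change at this depth.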

Other observations

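Ratios between pairs of adhesion genes were taken within each library, where library size cancels. These pairs were chosen after the values were seen, no test was made, and 3 cultures could not give an exact paired p below 0.25. The directions of the ratios therefore restate the changes of the single genes given above. The log2 ratio of Itga7 to Itga6 counts was higher in the NRG1 than in the mock sample by 1.3, 1.34 and 0.71 in cultures 1, 2 and 3. That of Itgb4 to Itgb1 was lower, with differences of -1.35, -1.71 and -1.35. That of Cdh2 to Cdh19 was higher by 1.63, 1.54 and 1.29 in the same order of cultures. That of Itga5 to Itgb5 was higher by 0.39, 1.89 and 1.36, with the smallest difference in culture 1.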
